A study of Mus musculus with 2 samples.

Results

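The genes described here are the proto-oncogene Myc, its partner Max and the genes around them: Myc, Bmyc, Max, Mxd1, Mxd4, Mxi1 and Mnt. They were chosen by symbol, all 7 were found among the 31054 genes of both count tables, and all 7 had a mean of 5 CPM or more in each comparison. CPM is a gene's count of unique molecular identifiers (UMIs), each 1 captured transcript end, per 1e+06 UMIs of the summed cells, so that levels can be compared between genes without their length. The cells came from gonadal white adipose tissue (gWAT) of 18-month-old male p16-CreERT2/R26-LSL-tdTomato mice. In these mice tamoxifen switches on Cre made from the p16Ink4a gene, and Cre frees the red protein tdTomato from its stop cassette at Rosa26, so that cells with p16 at that time and their descendants are marked. All mice carried both alleles and were killed 2 weeks after tamoxifen. CD31- CD45- cells, which leave out endothelial and blood cells, were sorted into tdTomato-positive (Tom+) and tdTomato-negative (Tom-) cells, with 1 droplet library of each. How many mice were pooled is not stated in the sources used here.

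With 1 library per condition there was no replicate, so no test, p-value or SD could be given, and differences between Tom+ and Tom- cells cannot be told apart from differences between the preparations. All ranges in parentheses are 95% intervals of counting error only. Of 5566 Tom+ and 11838 Tom- barcodes, 3524 and 6717 passed the filter on cells (gene number above 1000 and below 7000, under 8% of UMIs from mitochondrial genes). Mesothelial cells had at least 10 UMIs of Msln, Upk3b, Krt19, Lrrn4 and Upk1b together (250 Tom+ and 1887 Tom- cells). Stromal cells had fewer than 5 (3263 and 4800 cells), and 11 and 30 cells lay between. Stromal cells held 51104409 UMIs in Tom+ and 57883866 in Tom-, and mesothelial cells 5322983 and 32355904. The classes were checked against other markers. The 10 further mesothelial markers summed to 4447 and 4596 CPM in mesothelial cells of Tom+ and Tom- and to 245 and 386 CPM in stromal cells. The 11 adipocyte progenitor (APC) markers summed to 30186 and 31614 CPM in stromal cells and to 14076 and 15702 CPM in mesothelial cells. tdTomato RNA in stromal cells was at 211 CPM (Tom+) and 13.1 CPM (Tom-), and in mesothelial cells at 780.2 and 8.25 CPM.

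Some cells call for care. First, 2224 barcodes were listed in both libraries. Of these, 506 passed the filter in Tom+ and 284 in Tom-, but only 9 in both, and those that passed held a median of 42.0 times (Tom+) or 53.3 times (Tom-) the UMIs of their copy in the other library. They made up 100 of the 250 Tom+ mesothelial cells. Second, 137 Tom+ and 58 Tom- stromal cells were rich in immunoglobulin RNA, a product of plasma cells, although CD45- cells had been sorted: the immune list of 13 genes took at least 5% of their UMIs. Their Igkc was at 424759 and 312774 CPM, and Dcn, a stromal marker, at 4642 and 4334 CPM against 20146 and 22917 CPM in the other stromal cells. Over all stromal cells the immune list summed to 60170 CPM in Tom+ and 14638 CPM in Tom-. Markers of 7 endothelial genes summed to 73.3 CPM (Tom+) and 63.2 CPM (Tom-) in stromal cells, and those of 6 mural genes to 128 and 124 CPM. The stromal ratios of Myc, Bmyc and Mnt between the libraries are given with and without each of these sets of cells. Many other results are not. No value without shared barcodes is given for the shares of cells with a member's UMI or for levels by tdTomato UMIs. The same holds for Mycn counts and for mesothelial counts of genes induced by Myc. Shared barcodes were carried by 404 of 3263 Tom+ and 75 of 4800 Tom- stromal cells. Doublets were not called.

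Myc is a transcription factor that binds DNA only as a pair with Max, mainly at the E-box, and raises genes of ribosome production, metabolism and growth. Its RNA is short-lived and is induced within minutes by growth factors and by stress. Mxd1, Mxd4, Mxi1 and Mnt also pair with Max, occupy the same E-boxes and recruit the Sin3 and histone deacetylase repressors, so that they oppose Myc. Bmyc is a rodent gene related to the first part of Myc and lacks the part that binds Max and DNA. In cultured preadipocytes, forced Myc is known to block fat cell differentiation.

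The E-box is the shared target of these proteins other than Bmyc, and among the members themselves Mxd4 and Mnt carried it before their own start site. RefSeq promoter sequences (GRCm38.p6) were at hand for 6 members, Myc not among them. The motif CACGTG, which reads the same on both strands, was found within the 250 bases before the start site of 2 of the 6, Mxd4 and Mnt. Over all promoters it was found in 6.02% of 32851 windows of this length (1854 of 27025 genes, 6.86%), and among genes known as induced by Myc in 13 of 69 genes (18.8%). The Mxd4 window was chr5:34187711-34187960 on the minus strand and the Mnt window chr11:74830674-74830923 on the plus strand. They are shown 5′ to 3′ with the E-box in capitals, because these are the antagonist genes with the most UMIs and with the largest difference between the libraries:
Mxd4: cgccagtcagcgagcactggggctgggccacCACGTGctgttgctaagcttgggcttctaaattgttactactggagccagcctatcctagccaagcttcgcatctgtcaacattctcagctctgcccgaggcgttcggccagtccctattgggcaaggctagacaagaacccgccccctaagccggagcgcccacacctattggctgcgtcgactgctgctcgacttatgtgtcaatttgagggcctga
Mnt: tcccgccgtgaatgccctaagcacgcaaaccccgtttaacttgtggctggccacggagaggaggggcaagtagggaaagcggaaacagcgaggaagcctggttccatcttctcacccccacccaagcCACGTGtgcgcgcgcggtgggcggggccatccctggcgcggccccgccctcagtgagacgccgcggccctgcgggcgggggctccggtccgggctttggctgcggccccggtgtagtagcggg
The E-box began 219 bases before the start site of Mxd4 and 123 bases before that of Mnt. A match of letters does not show binding.

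Myc (ENSMUSG00000022346, GRCm38 chromosome 15 from 61985391 to 61990374, plus strand) was the member with the most RNA in each group. In stromal cells it was at 166 CPM in Tom+ (163 to 170) and 329 CPM in Tom- (324 to 334). In mesothelial cells it was at 364 CPM in Tom+ (348 to 380) and 482 CPM in Tom- (475 to 490). The order was thus Tom- mesothelial, Tom+ mesothelial, Tom- stromal and Tom+ stromal, with no overlap between counting intervals. Its log2 ratio of Tom+ over Tom- was -0.98 in stromal cells (-1.02 to -0.95), lower than in all but 1.01% of 9778 genes. In mesothelial cells the ratio was -0.41 (-0.48 to -0.34), lower than in all but 3.08% of 10014 genes.

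Bmyc (ENSMUSG00000049086, chromosome 2 from 25706739 to 25707721, plus strand) was lower in Tom+ among stromal cells, with 41.2 CPM (39.4 to 43.0) against 67.8 CPM (65.7 to 69.9). The log2 ratio was -0.72 (-0.80 to -0.64). In mesothelial cells it was at 27.6 CPM in Tom+ (23.3 to 32.5) and 25.2 CPM in Tom- (23.5 to 27.0), and these intervals overlapped. Its sequence is related to that of Myc, so its count is less certain. The 1 gene that it overlaps lies on the other strand.

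Max (ENSMUSG00000059436, chromosome 12 from 76937269 to 76962201, minus strand), the common partner, lay between 47.9 and 56.9 CPM in all groups. In stromal cells it was at 54.8 CPM (Tom+) and 50.9 CPM (Tom-), and in mesothelial cells at 47.9 and 56.9 CPM. Between libraries its log2 ratio was 0.11 in stromal (0.03 to 0.18) and -0.25 in mesothelial cells (-0.44 to -0.06). Max and Mxd1 each overlap 1 unclassified locus on their own strand, so the counts of Max and Mxd1 are less certain too. Mxd4 and Mxi1 overlap 1 and 2 genes, all on the other strand.

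Among the antagonists, the counting intervals of the stromal log2 ratio lay above 0 for Mnt and Mxd4, as for Max. Those of Mxd1 and Mxi1 included 0. Mnt (ENSMUSG00000000282, chromosome 11 from 74830920 to 74845725, plus strand), the most widely expressed repressor of the family, was at 27.3 CPM in Tom+ (25.9 to 28.7) and 18.3 CPM in Tom- stromal cells (17.2 to 19.4). Its log2 ratio of 0.57 (0.46 to 0.69) was above that of 95.9% of genes. Mxd4 (ENSMUSG00000037235, chromosome 5 from 34173883 to 34187720, minus strand), which is known from resting and differentiating cells, was the antagonist with the most UMIs. It was at 159 CPM in Tom+ (155 to 162) and 133 CPM in Tom- (130 to 136), a log2 ratio of 0.25 (0.21 to 0.30) at the 75.7th percentile of all genes. Only Mnt passed the fold used here, an absolute log2 ratio of at least 0.35.

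Mxd1 (ENSMUSG00000001156, chromosome 6 from 86647042 to 86669161, minus strand), known from cells leaving the cycle, had the fewest UMIs of the members in stromal cells. It was at 13.0 CPM in Tom+ (12.1 to 14.1) and 11.9 CPM in Tom- (11.0 to 12.8). Mxi1 (ENSMUSG00000025025, chromosome 19 from 53310518 to 53375810, plus strand), also called Mxd2, was at 37.6 CPM (35.9 to 39.3) and 37.8 CPM (36.3 to 39.5). In mesothelial cells the log2 ratios of the 4 antagonists ran from -0.12 for Mxi1 to 0.16 for Mxd1, and each interval included 0.

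**Figure D1:**
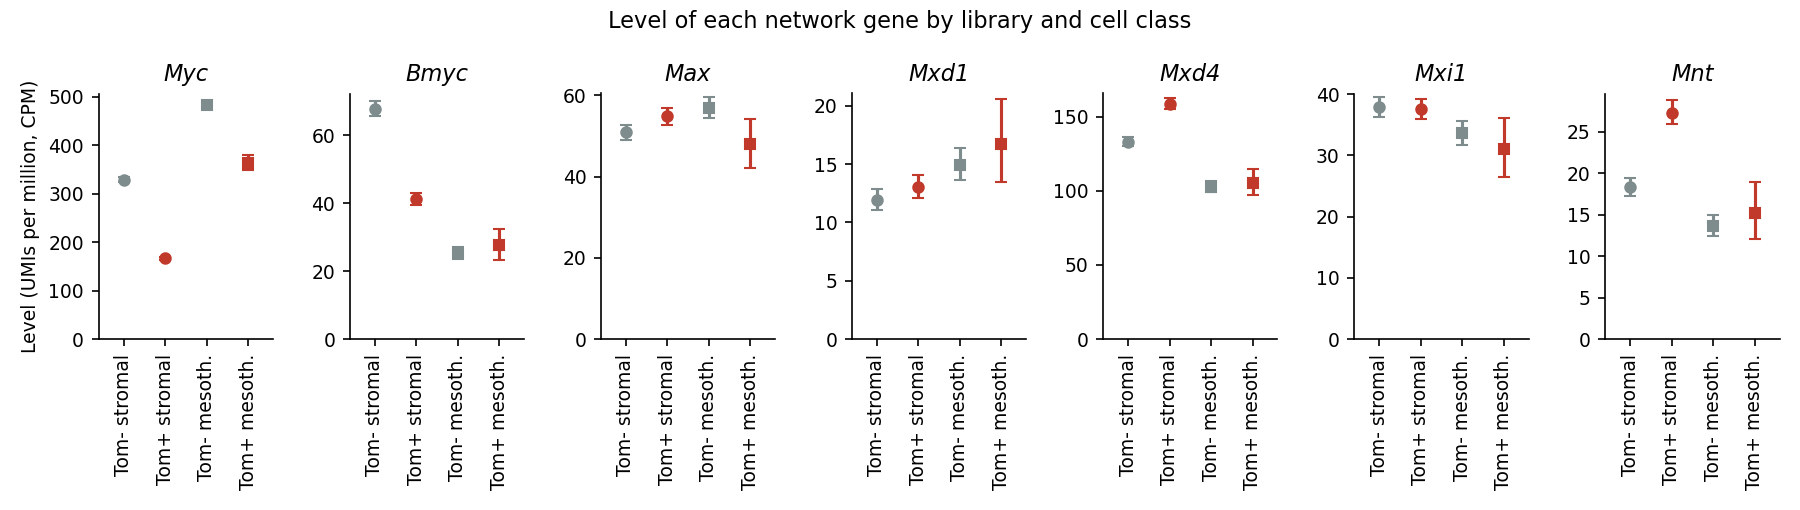
Level of each member in CPM (y axis, from 0, a scale of its own per gene) in stromal (circles) and mesothelial (squares) cells of the Tom- (grey) and Tom+ (red) libraries, with 1 library per point and bars for the 95% Poisson counting interval. In stromal cells Myc was at 166 CPM (Tom+) and 329 CPM (Tom-), and Mnt at 27.3 and 18.3 CPM.

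By this fold, 2 of 7 members were lower in Tom+ stromal cells (Myc and Bmyc), where 8.16% of 9778 genes were, and 1 of 7 was higher (Mnt), where 14.8% were. The count of higher members is near the share of all genes and is no result about the members as a group. The members were chosen with earlier results of these data known, so the count of lower members, and those below, are a description only. The median log2 ratio of all these genes was 0.071, and 798 were lower and 1443 higher past the fold. Centred on that median, these counts were 1086 and 956, and the same 3 members passed it, with log2 ratios of -1.06, -0.79 and 0.50. Among genes with 50 CPM or more on average, where 10.8% were lower and 7.88% higher, 2 members were lower (Myc and Bmyc) and 0 higher, since Mnt was below that level. With barcodes of both libraries left out, the log2 ratios were -0.83 for Myc, -0.62 for Bmyc and 0.65 for Mnt. Without the immunoglobulin-rich cells, a choice made after the data were seen, they were -0.91, -0.66 and 0.66. Since 114 of the 137 such Tom+ cells also had a shared barcode, these 2 alternatives are not independent. In mesothelial cells, 1 of 7 members was lower (Myc), where 4.27% of 10014 genes were, and 0 of 7 were higher, where 7.34% were. Myc at -0.41 lay close to the fold, and without the shared barcodes it was at -0.30, inside the fold, while Mnt moved from 0.16 to -0.35, at the fold, so that the 1 lower member was then Mnt and not Myc. The call of Myc in mesothelial cells thus rested on cells with a shared barcode (100 of 250 in Tom+ and 207 of 1887 in Tom-). Macrophage markers moved with this comparison too. In mesothelial cells Lyz2 was at 275 CPM (Tom+) and 10.8 CPM (Tom-), Csf1r at 48.7 and 12.3 CPM, Cd68 at 34.6 and 9.24 CPM and Adgre1 at 18.6 and 0.216 CPM, and the whole immune list summed to 1456 and 746 CPM. With cells of at least 3 UMIs of these 4 markers left out, a choice made after the data were seen, 222 Tom+ and 1842 Tom- mesothelial cells remained and the log2 ratio of Myc was -0.38.

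**Figure D2:**
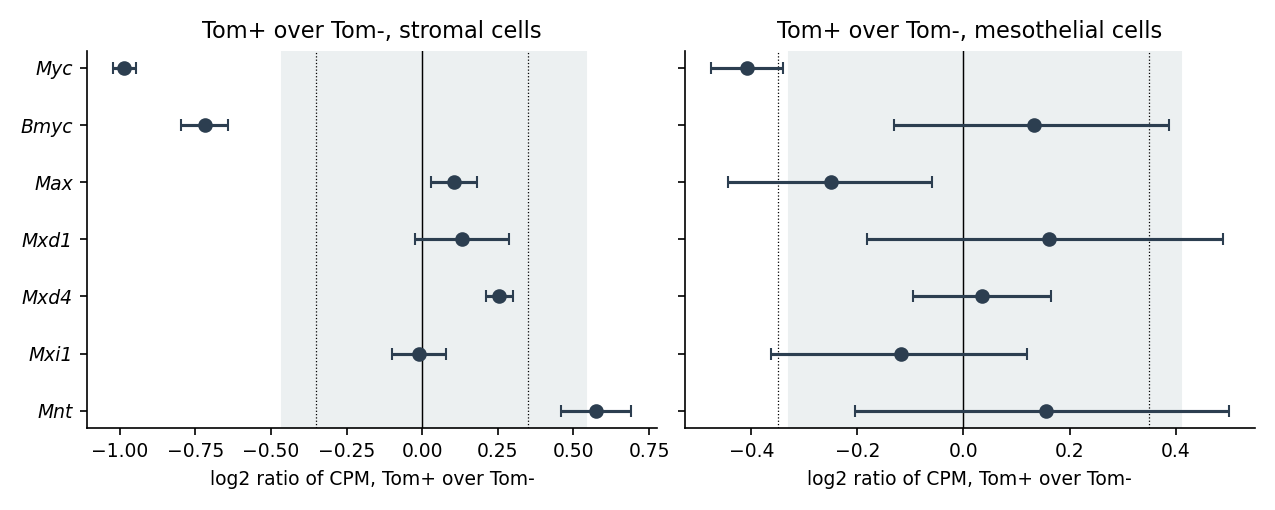
Log2 ratio of Tom+ over Tom- for each member (x axis) in stromal and mesothelial cells, with 95% counting intervals. Grey bands run from the 5th to the 95th percentile of all genes that average 5 CPM or more, and dotted lines mark 0.35 in either direction. In stromal cells Myc at -0.98 and Bmyc at -0.72 lie to the left of the band and Mnt at 0.57 to the right.

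The balance between Myc and its antagonists does not depend on the scaling to CPM, since it is taken within a library. Myc made up 41.3% of the UMIs of Myc, Mxd1, Mxd4, Mxi1 and Mnt together in Tom+ stromal cells (40.6 to 41.9) and 62.1% in Tom- stromal cells (61.5 to 62.6). The difference was -20.8 percentage points (-21.7 to -19.9). Mxd4 made up 39.4% in Tom+ and 25.1% in Tom-, close to Myc's own share in Tom+. In mesothelial cells Myc made up 68.4% in Tom+ (66.6 to 70.1) and 74.5% in Tom- (73.9 to 75.1), a difference of -6.15 points (-7.99 to -4.33) that was -3.04 points with the shared barcodes left out. There were 0.702 Myc UMIs per antagonist UMI in Tom+ and 1.64 in Tom- stromal cells, and 2.16 and 2.92 in mesothelial cells.

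**Figure D3:**
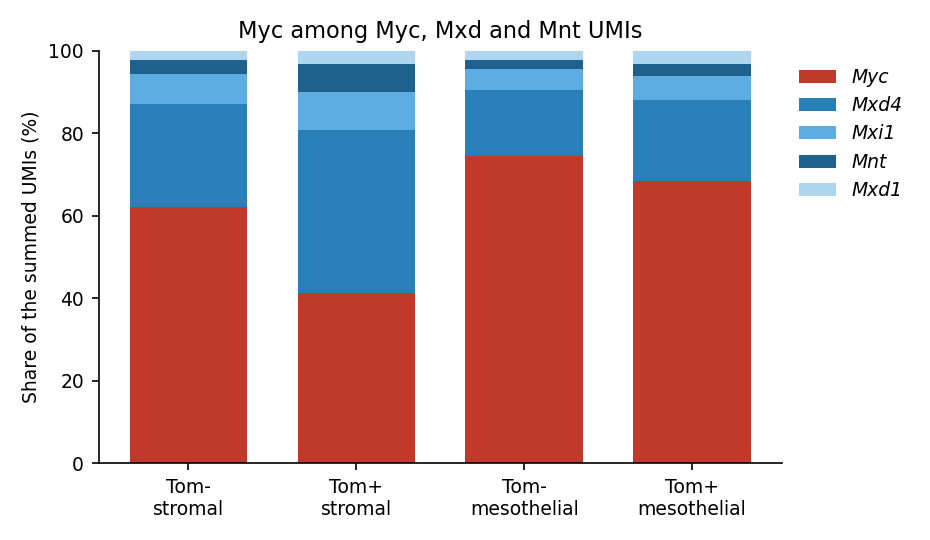
Share of Myc, Mxd4, Mxi1, Mnt and Mxd1 in their summed UMIs (y axis, percent) in each library and cell class, 1 library per bar. Myc takes 41.3% in Tom+ stromal cells against 62.1% in Tom- stromal cells, and 68.4% against 74.5% in mesothelial cells.

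Mesothelial cells, the flat cells that cover the fat pad, had more Myc and less Bmyc, Mxd4 and Mnt than the stromal cells beneath them, in both libraries. The log2 ratio of mesothelial over stromal cells for Myc was 1.13 in Tom+ (1.06 to 1.20) and 0.55 in Tom- (0.52 to 0.58). For Bmyc it was -0.58 in Tom+ (-0.83 to -0.33) and -1.43 in Tom- (-1.54 to -1.32). For Mxd4 it was -0.59 (-0.72 to -0.47) and -0.37 (-0.43 to -0.31), and for Mnt -0.84 (-1.18 to -0.52) and -0.42 (-0.59 to -0.26). So 1 of 7 members was higher past the fold in both libraries, where 27.6% of 9907 genes were, and 3 of 7 were lower in both, where 17.1% were. The first share is below the background and is no result about the members as a group. The median of all genes was 0.11 in Tom+ and 0.14 in Tom-. Relative to it, Myc was at 1.02 and 0.41, Bmyc at -0.69 and -1.57, Mxd4 at -0.70 and -0.51, and Mnt at -0.95 and -0.56. Mxd1 was at 0.36 and 0.33 before centring, and Mxi1 at -0.28 and -0.17. Max was at -0.19 in Tom+ and 0.16 in Tom-, and at -0.31 and 0.02 relative to the median. With the shared barcodes left out, the same members passed in both libraries, and Mnt was at -1.43 in Tom+.

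Cell by cell, Myc had the largest variance of UMIs over their mean among the members. Each cell was thinned to 7204 UMIs, which left out 240 Tom+ and 567 Tom- stromal cells and 3 and 84 mesothelial cells. A Myc UMI was then found in 48.8% of Tom+ stromal cells (47.0 to 50.6) and 67.6% of Tom- stromal cells (66.2 to 69.0). Without thinning the shares were 60.8% and 73.6%, with medians of 14235 UMIs (Tom+) and 11270 UMIs (Tom-). In mesothelial cells the thinned shares were 68.4% (62.2 to 74.2) and 78.0% (76.1 to 79.9). At least 10 Myc UMIs were found in 1.06% of Tom+ (0.725 to 1.49) and 4.35% of Tom- stromal cells (3.75 to 5.01), and in 4.05% (1.96 to 7.32) and 8.04% (6.83 to 9.39) of mesothelial cells. The 4.35% of Tom- stromal cells held 22.2% of the Myc UMIs of that group. The variance of Myc UMIs over their mean was 3.32 in Tom+ and 4.07 in Tom- stromal cells, where counting alone gives 1. For Bmyc it was 1.38 and 1.84, and for Max, Mxd1, Mxd4, Mxi1 and Mnt it ran from 1.03 to 1.23 in these cells. Where cells differ, this measure grows with the mean, so it does not rank members with unlike means. Myc had the highest mean, 1.31 (Tom+) and 2.48 (Tom-) UMIs per thinned stromal cell, and Mxd1 the lowest, 0.0887 and 0.0874. Mxd4 came closest to Myc in Tom+, with a mean of 1.14 and a variance over mean of 1.16. No cell class here is known to lack these genes, so no background share from free RNA could be set.

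**Figure D4:**
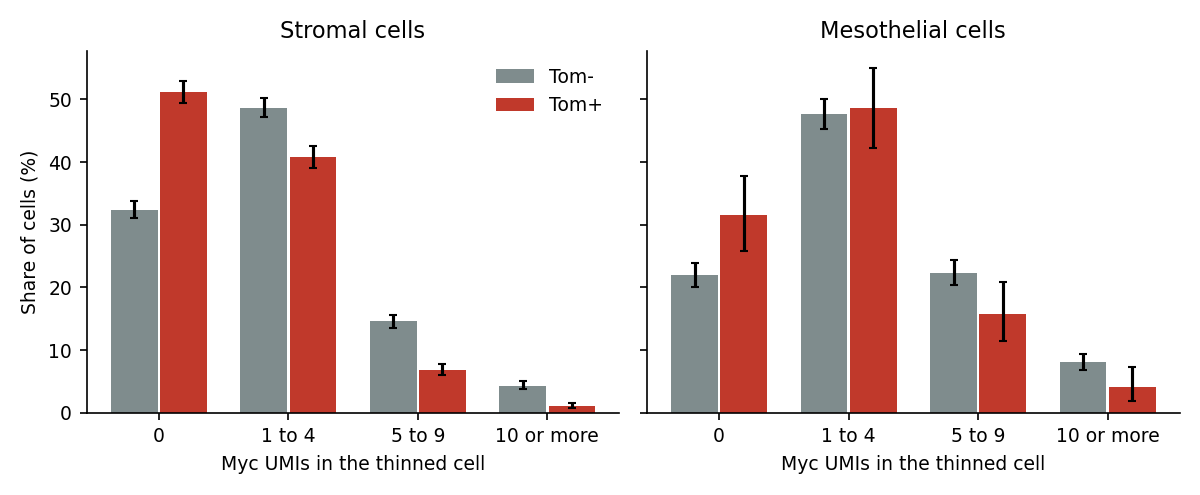
Share of cells (y axis, percent) by the number of Myc UMIs (x axis) in stromal and mesothelial cells thinned to 7204 UMIs, for Tom- (grey) and Tom+ (red), with 95% Clopper-Pearson intervals. No Myc UMI was found in 51.2% of Tom+ and 32.4% of Tom- stromal cells.

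After thinning, an Mxd4 UMI was found in 64.5% of Tom+ (62.8 to 66.2) and 57.7% of Tom- stromal cells (56.2 to 59.2), and a Mnt UMI in 18.3% (16.9 to 19.7) and 12.1% (11.1 to 13.1). A Bmyc UMI was found in 24.1% (22.6 to 25.7) and 31.9% (30.5 to 33.4). Across stromal cells, Myc and Mxd4 UMIs were correlated by r = -0.079 in 3023 Tom+ cells and -0.066 in 4233 Tom- cells, and each other pair of Myc with a member lay between -0.0504 and 0.0008. In counts this sparse such values are no finding.

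The difference in Myc was seen in every bin of the gene lists by which stromal cells were split. Cells were split at the quartiles into 4 bins each by the share of UMIs taken by immediate early and heat shock genes (known to rise when tissue is dissociated), by genes of interstitial progenitors (Dpp4, Pi16 and others) and by genes of preadipocytes (Pparg, Fabp4 and others). The immediate early list summed to 36074 CPM in Tom+ and 43786 CPM in Tom- stromal cells. Without the immunoglobulin-rich cells, Myc was lower in Tom+ in 12 of 12 bins, with log2 ratios from -1.12 to -0.59. Its levels ran from 140 to 216 CPM in Tom+ and from 283 to 383 CPM in Tom-, so the ranges over bins did not overlap. Bmyc was lower in 12 of 12 (-0.96 to -0.38) and Mnt higher in 12 of 12 (0.53 to 0.83). Mxd4 was higher in 12 of 12 (0.18 to 0.53), whereas Mxd1 was higher in 6 and lower in 6. Max was higher in 12 of 12 as well (0.11 to 0.28) and Mxi1 in 10. The median of all genes was 0.14 over these cells, so being higher in each bin is not particular to the antagonists. With the immunoglobulin-rich cells, Myc and Bmyc were lower in 12 of 12 and Mnt higher in 12. Mxd4 was then higher in 11 (-0.02 to 0.42), Max in 10, Mxd1 in 9 and Mxi1 in 7. The bins are overlapping splits of the same cells and not independent. With the 4 bins of the immediate early list weighted equally, the log2 ratio over all stromal cells was -0.94 for Myc and -0.54 for Bmyc. The part of dissociation in these differences was not tested.

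Without the immunoglobulin-rich cells, Bmyc was higher in the highest than in the lowest bin of the immediate early list in both libraries. Between these end bins Myc went opposite ways in the libraries. In Tom- stromal cells Bmyc was at 52.1 CPM in the lowest bin of that list (48.1 to 56.3) and at 89.9 CPM in the highest (85.3 to 94.7). In Tom+ cells it was at 35.8 CPM (33.0 to 38.7) and 59.8 CPM (53.5 to 66.7). Myc was at 358 CPM in the lowest and 283 CPM in the highest bin of Tom-, and at 165 CPM and 188 CPM in Tom+. Set out by the Myc UMIs of thinned Tom+ stromal cells, the list showed no steady rise. It summed to 284 UMIs per cell at 0 Myc UMIs, 292 at 5 to 9 and 282 at 10 or more. In Tom- these sums were 346, 317 and 319. Myc and Bmyc were each lower in Tom+ in every bin of this list.

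Myc was also low in Tom+ stromal cells in which no tdTomato UMI was found. It was at 176 CPM in the 2324 cells with 0 tdTomato UMIs (171 to 180), at 172 CPM in the 594 cells with 1 to 4 (164 to 181) and at 241 CPM in the 208 cells with 5 or more (223 to 261), with the immunoglobulin-rich cells left out. With them, the last value was 120 CPM over 330 cells (112 to 128). The immunoglobulin-rich cells of Tom+ held 655 CPM of tdTomato and 59.9 CPM of Myc, and those of Tom- 158 CPM of Myc. The immune list took 56.0% and 42.3% of their UMIs, which lowers the CPM of every other gene in them. The order of CPM within the library thus turned on the immunoglobulin-rich cells. How much of this was dilution by immune RNA was not tested. Among the 208 cells, Mxd4 was at 132 CPM (118 to 146) and Mnt at 25.8 CPM (20.1 to 32.6). In Tom- stromal cells with 0 tdTomato UMIs Myc was at 336 CPM (331 to 341). Mesothelial cells of Tom+ had 399 CPM of Myc with 0 tdTomato UMIs (366 to 435), 402 CPM with 1 to 4 (368 to 440) and 330 CPM with 5 or more (309 to 352).

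A small set of stromal cells with at least 2 UMIs of Calca and Ncam1, 39 in Tom+ and 151 in Tom-, had much Myc. It was at 396 CPM in Tom+ (345 to 453) and 524 CPM in Tom- (492 to 557), beside 179 and 335 CPM in all stromal cells without immunoglobulin-rich cells. tdTomato was at 917 CPM in the 39 Tom+ cells. This limit was chosen after the data were seen.

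Of the other genes of the Myc, Max and Mlx families (Mycn, Mycl, Mxd3, Mga, Mlx, Mlxip and Mlxipl), 3 of 7 reached a mean of 5 CPM in stromal cells and 0 passed the fold. Of all genes, 8.16% were lower and 14.8% higher past it. Mga, a large repressor that pairs with Max, had a log2 ratio of 0.33 (0.26 to 0.39) and Mlxip, a glucose-sensing partner of Mlx, one of 0.32 (0.21 to 0.42). Without the immunoglobulin-rich cells, where 6.36% of 9798 genes were lower and 21.1% higher past the fold, Mga passed it. Mycn, the close relative of Myc known from embryonic tissue, was singled out after its values were seen. It had 36 UMIs in the 250 Tom+ and 355 in the 1887 Tom- mesothelial cells, against 3 and 10 UMIs in the 3263 and 4800 stromal cells. The log2 ratio of mesothelial over stromal cells was 6.85 in Tom+ (5.19 to 9.19) and 5.99 in Tom- (5.09 to 7.06). Between libraries its ratio in mesothelial cells was -0.70 (-1.24 to -0.20).

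Of 19 cofactors, 0 were lower and 1 was higher in Tom+ stromal cells, fewer than the 8.16% and 14.8% of all genes. The 1 was Sin3a, the scaffold through which Mxd proteins and Mnt repress, with a log2 ratio of 0.48 (0.36 to 0.60). Without the immunoglobulin-rich cells 0 were lower and 2 higher, where 6.36% and 21.1% of all genes were. Trrap, which brings acetylases to Myc, was at 0.25, the histone deacetylase Hdac1 at -0.09 and the ATPase Ruvbl1 at -0.21. Of 10 measured genes that act on the stability of the Myc protein, 0 were lower and 2 were higher, near the shares of all genes. Without the immunoglobulin-rich cells 0 were lower and 3 higher, beside those 6.36% and 21.1%. The 2 were Fbxw7, the ligase subunit that marks Myc for degradation (0.51, 0.38 to 0.64), and Trim32 (0.39, 0.22 to 0.57), both below the 20 CPM set for naming and named after their values were seen. Gsk3b, a kinase that primes Myc for it, was at 0.20, Usp36, which removes ubiquitin from Myc, at 0.21, and Btrc at 0.03. Protein levels were not measured.

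Of 71 measured genes known as induced by Myc, 9 were lower and 2 higher in Tom+ stromal cells past the fold, beside the 8.16% and 14.8% of all genes. Their median log2 ratio was -0.06, beside 0.071 for all genes, and 50 of the 71 lay below that median. Without the immunoglobulin-rich cells, 8 were lower and 4 higher, with a median of 0.01 beside 0.14, where 6.36% and 21.1% of all genes were. The lowest were Odc1, the first enzyme of polyamine synthesis, at 130 and 245 CPM in Tom+ and Tom- (log2 ratio -0.92, -0.96 to -0.87), and Hk2, which starts glycolysis, at 256 and 461 CPM (-0.85, -0.88 to -0.82). The highest among those averaging 20 CPM or more were the cyclin Ccnd2 (0.54) and the tRNA exporter Xpot (0.33). In mesothelial cells 1 of 74 was lower and 4 were higher past the fold, where 4.27% and 7.34% of all genes were. Neither count exceeds the share of all genes, so they are no result about the list. The median was 0.03 beside 0.03 for all genes. The lower one was Rrs1 (-0.40, -0.64 to -0.18), and the higher ones were Pus1 (0.46), Tfrc (0.44), Wdr74 (0.43) and Cdc25a (0.39, -0.18 to 0.93), named after their values were seen. Hk2 was at 0.12 there (-0.07 to 0.30).

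The same list was also set out for mesothelial over stromal cells in each library. In Tom+, 38 of 74 were higher and 10 lower past the fold, where 33.7% and 23.6% of all genes were, with a median of 0.35 beside 0.11. In Tom-, 28 were higher and 11 lower, where 32.8% and 19.7% were, with a median of 0.24 beside 0.14, so the higher count in Tom- was near the share of all genes. Npm1, a nucleolar protein, was at 0.95 and 0.94 and Ncl, another, at 0.82 and 0.58. Hk2 went the other way, at -2.23 and -3.20. Hk2, Npm1 and Ncl were picked here after their values were seen.

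Of 13 measured genes known as repressed by Myc, 4 were lower and 2 higher in Tom+ stromal cells, beside the 8.16% and 14.8% of all genes. Without the immunoglobulin-rich cells 4 of 14 were lower and 2 higher, beside 6.36% and 21.1%. Txnip, which limits glucose uptake, was at 0.60 and the receptor Pdgfrb at 0.51, while the stress genes Gadd45b and Gadd45a were at -0.64 and -0.59. Of 23 immediate early and heat shock genes, 8 were lower, led by Socs3 (-0.85) and Ier5 (-0.75), and 0 higher, beside the same shares of all genes. Their median was -0.23, beside 0.071 for all genes. Each of these 23 averaged more than 50 CPM. Among all genes averaging 50 CPM or more, 10.8% were lower and 7.88% higher, with a median of -0.004. Without the immunoglobulin-rich cells, 8 were lower and 1 was higher, where 6.36% and 21.1% of all genes were. The median was then -0.16, beside 0.14. Klf2 was at 0.09 and Egr3 at 0.33. Of 12 proliferation genes only 4 averaged 5 CPM or more, and 0 passed the fold, where 8.16% of all genes were lower and 14.8% higher. Pcna, a sliding clamp of DNA replication, was at -0.01. Genes of cell division lay below that level and were looked at after their values were seen. Cdk1 (-1.78, -2.59 to -1.04), Top2a (-1.14), Birc5 (-1.06) and Mki67 (-0.60) were lower and Ccnb1 (1.28, 0.81 to 1.76) was higher. The intervals of Ccnb2, Ccna2 and Mcm2 included 0. These counts were low, with 19 and 74 UMIs of Cdk1 in Tom+ and Tom-.

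The genes whose UMIs varied most like those of Myc from cell to cell were ranked only among genes averaging 50 CPM or more. Mxd1, Mxi1 and Mnt averaged 12.5, 37.7 and 22.8 CPM and were thus not ranked. Max and Bmyc, at 52.9 and 54.5 CPM, lay just above that limit, so their absence among the genes most alike is no finding. Over thinned stromal cells and 2843 genes averaging 50 CPM or more, the 8 most alike by the smaller r of both libraries were Mt1, Cxcl1, Maff, Ier5, Mt2, Kdm6b, Ifrd1 and Hk2. For Mt1, a metal-binding stress protein, r was 0.34 in Tom+ and 0.36 in Tom-. For the chemokine Cxcl1 it was 0.30 and 0.31, and for Hk2, the eighth, 0.28 and 0.26. These cells share a library and a depth, and no other member reached 0.2 with any gene in both libraries. Without immunoglobulin-rich cells the 8 values ran from 0.26 to 0.36.

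Hk2, Odc1, the other induced genes and Mxd4 were set out by the number of Myc UMIs of a cell. In thinned stromal cells without immunoglobulin-rich ones, Hk2 was at 1.36 UMIs per cell in the 1446 Tom+ cells with 0 Myc UMIs (1.30 to 1.42) and at 4.33 in the 206 cells with 5 to 9 (4.05 to 4.62). In Tom- it was at 2.09 (2.02 to 2.17) and 4.83 (4.66 to 5.01). Odc1 was at 0.679 in Tom+ (0.637 to 0.723) and 1.19 in Tom- (1.13 to 1.25) at 0 Myc UMIs, and at 1.26 (1.11 to 1.43) and 2.05 (1.93 to 2.16) at 5 to 9. The other induced genes summed to 27.8 UMIs per cell in Tom+ (27.5 to 28.1) and 30.2 in Tom- (29.9 to 30.5) at 0 Myc UMIs, and to 32.2 (31.4 to 32.9) and 32.7 (32.3 to 33.2) at 5 to 9. They summed to 29.0 (28.7 to 29.3) and 31.8 (31.5 to 32.0) at 1 to 4. At 10 or more they summed to 33.3 in 32 Tom+ cells (31.3 to 35.4) and 36.2 in 183 Tom- cells (35.3 to 37.1). Hk2 was at 4.41 (3.71 to 5.20) and 4.68 (4.37 to 5.00) in these cells. From 0 to 5 to 9 Myc UMIs, Mxd4 went down from 1.27 to 0.927 in Tom+ and from 1.01 to 0.837 in Tom-. Hk2 is among the genes picked above for their correlation with Myc in these cells and Odc1 for its ratio between the libraries, so these values are a description. A thinned count is a noisy measure of a cell's Myc, so cells with like counts in the libraries need not have like levels.

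**Figure D5:**
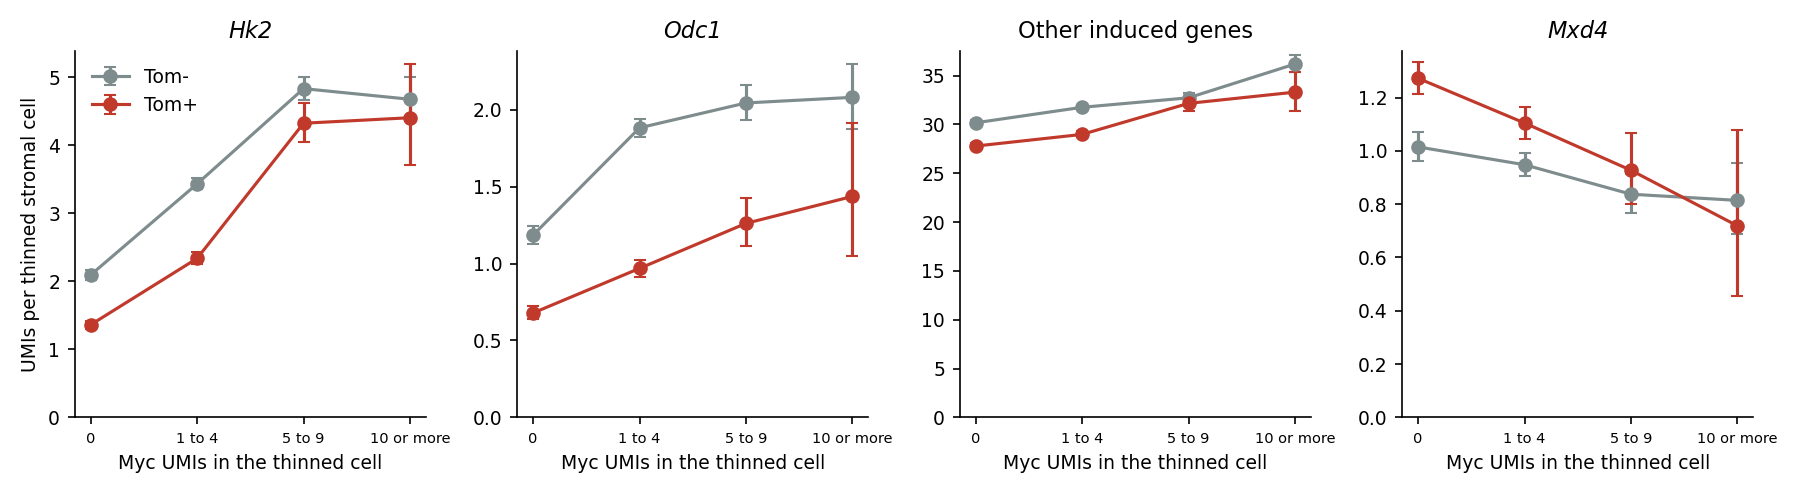
UMIs per thinned stromal cell (y axes, from 0) of Hk2, Odc1, the other induced genes summed and Mxd4, by the Myc UMIs of the cell (x axis), for Tom- (grey) and Tom+ (red), with 95% Poisson intervals and without immunoglobulin-rich cells. Hk2 is at 1.36 and 2.09 at 0 Myc UMIs and at 4.33 and 4.83 at 5 to 9, in Tom+ and Tom-.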

How the data were processed

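The authors deposited whole-number UMI counts per gene and barcode for each library, from 10x Chromium Single Cell 3′ v3.1 kits, made per the labels with Cell Ranger 3.0.2 on mm10, without normalization. 3′ UMIs count transcript ends, so levels need no gene length. Counts of the cells that passed the filter were summed per library and cell class and scaled to CPM with Python 3.11.15, numpy 2.4.6, scipy 1.17.1 and pandas 2.3.3; figures used matplotlib 3.10.9. Intervals at 95% were exact Poisson for CPM and exact Clopper-Pearson for shares and, conditionally, for log2 ratios. The interval of a difference of shares was built from the 2 Clopper-Pearson intervals. They cover counting error only. On counts simulated from a Poisson distribution for 9778 genes of the stromal comparison, with 200 changed genes, 95.5% of intervals held the true ratio. The intervals assume that distribution, so this checks their calculation only and not the spread between cells or libraries.

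The members and gene lists were chosen with earlier results of these data known. From each list, the 2 highest and 2 lowest log2 ratios in stromal cells at a mean of at least 20 CPM were named. Some genes under this rule are not reported here. Genes like a member were ranked by Pearson r over log2(UMI + 1) of thinned cells. All 7 members matched the GENCODE vM21 annotation of GRCm38, as did 30934 of 31054 gene IDs. Median-of-ratios size factors were applied as a centring on the median log2 ratio. Alternatives are given with the closing results.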

Additional observations from a re-analysis of the deposited data

Results flagged for a closer look

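For 2 members the difference between Tom+ and Tom- went opposite ways in the cell classes. Bmyc had a log2 ratio of -0.72 in stromal cells and 0.13 in mesothelial cells, whose interval included 0. Max had 0.11 in stromal and -0.25 in mesothelial cells, and neither counting interval included 0. In stromal cells Max was at -0.12 with fewer than 3 immune-list UMIs per cell, and at 0.03 after centring on the median. Max also differed in direction between libraries when mesothelial cells were set against stromal cells, at -0.19 in Tom+ and 0.16 in Tom-. With 1 library per group these differences were not tested.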

How the results depend on the processing

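No paired analysis was possible because each group is 1 library. With fewer than 3 UMIs of the immune list and progenitor markers present, 79 of 3263 Tom+ and 2327 of 4800 Tom- stromal cells and 0 of 250 Tom+ mesothelial cells were left, so no mesothelial value could be had. At least 3 such UMIs were found in 97.5% of Tom+ and 51.25% of Tom- stromal cells, so this limit kept unlike parts of the libraries. In the stromal cells left, 1 member was lower (Myc, -0.53) and 2 were higher (Mnt, 0.43, and Mxd1, 0.64). Bmyc was at -0.13, Mxd4 at -0.01, and the Myc share differed by -11.3 percentage points. That share differed by -19.8 points with each cell weighted equally and by -19.0 points without barcodes of both libraries, and the mesothelial one by -3.04 points without these. With cells thinned to 1 depth, 2 members were lower in Tom+ mesothelial cells (Myc, -0.44, and Max, -0.38) and 1 was higher (Bmyc, 0.54). Bmyc was then at -0.32 in Tom+ mesothelial over stromal cells, inside the fold. So 2 members and not 3 were lower in mesothelial cells of both libraries. The share of all genes past the fold was not counted for thinned cells, the immune-list limit or the removal of shared barcodes. Whether the member counts under these alternatives exceed the background was therefore not tested. With a mean of at least 50 CPM required, 0 members were higher in stromal cells, since Mnt was below that level. Across 10 alternatives the stromal log2 ratio of Myc ran from -1.06 to -0.53, of Bmyc from -0.79 to -0.13 and of Mnt from 0.43 to 0.69, each with its sign kept. The ends at -0.53, -0.13 and 0.43 came from the immune-list limit with its 79 Tom+ cells. Mxd4 kept its sign in 9 of the 10. The other alternatives for these counts and shares left them within 1.5 times or within their counting interval. Leaving out immunoglobulin-rich cells, or cells with macrophage markers, was chosen after seeing the data. Mesothelial values rest on 250 Tom+ cells, where Mnt had 81 and Mxd1 89 UMIs.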
